A study of Mus musculus with 14 samples.

Results

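The genes described here encode, in the nucleus, the protein subunits of the 5 oxidative phosphorylation complexes. They were taken from the deposited expression table by their symbols: protein-coding rows off the mitochondrial chromosome whose names begin with Nduf and a subunit letter and number, Sdha to Sdhd, Uqcr, Cox4 to Cox8 with a letter a to c, or Atp5. The rule found 86 of 56748 rows, with 85 different symbols, since Atp5o (the OSCP subunit of the stalk) is listed in 2 rows. Of these, 37 were assigned to complex I, 4 to complex II, 8 to complex III, 18 to complex IV and 18 to complex V. Those of complex IV include Cox7a2l, which is a supercomplex factor and not a subunit. The remaining 1 (Ndufa4l2) is a paralogue of a subunit and not itself a subunit. The letter pattern leaves out Cox4i1 and Cox4i2, and other symbols leave out Cyc1, Cycs and Ndufab1, which also serve the chain. RNA came from ovaries of female C57BL/6J mice labelled WT, with or without dextran sulfate sodium (DSS), a polymer used to inflame the mouse colon. The 4 groups were untreated controls at day 7 (3 libraries, numbered 10, 51 and 53), DSS at day 7 (4 libraries, 75, 80, 81 and 82), controls at day 89 (3 libraries, R123, R124 and R126) and DSS at day 89 (4 libraries, R29, R38, R78 and R89). The series text places the first time at the close of the DSS model and the later one after a rest of 89 days. The libraries of the 2 days are separate sets. Elapsed time, animal age and any difference in collection, preparation or sequencing between the days cannot be told apart. A fall or rise with day therefore means only lower or higher in the day 89 libraries. The labels name no animal age or DSS dose, and they do not tie each library to an animal of its own, so p-values here reflect variation among libraries that could be technical. Whole ovary mixes follicles, corpora lutea, interstitium, vessels and blood, and fewer cells of a type cannot be told apart from less RNA per cell.

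Oxidative phosphorylation passes electrons from NADH (complex I) and succinate (complex II) through complex III to oxygen at complex IV, and the proton gradient so made drives ATP synthesis at complex V. Most subunits are encoded in the nucleus, made on cytosolic ribosomes and imported, while a small set, at the hydrophobic core of complexes I, III, IV and V, is encoded by mitochondrial DNA. In the ovary, oocytes are rich in mitochondria and depend on them for maturation, and in steroid-producing theca and luteal cells the first step from cholesterol takes place inside mitochondria.

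Promoters of these genes are known for sites of a few shared factors, and 5 are shown because they head the genes that the results turn on: 3 that fell with day, 1 that rose with day and Cox7a1, the member with the smallest p in the DSS comparison at day 7. Promoters matched by symbol were found for 69 of the 85 symbols in RefSeq on GRCm38.p6. Each run covers 300 bases, from 250 before to 50 after the annotated start, written 5′ to 3′ on the gene's own strand. Capitals mark matches, on either strand, to 4 motifs: GCGC, any base and then TGCGC for NRF1, CCGGAAG for the ETS family with GABP, AAGATGGC for YY1 and AAGGTCA for the oestrogen-related receptors (ERR). Matches that overlapped were both capitalised.

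Atp5k, subunit e of the ATP synthase, lies on the minus strand at chr5:108434350-108434649:
Atp5k: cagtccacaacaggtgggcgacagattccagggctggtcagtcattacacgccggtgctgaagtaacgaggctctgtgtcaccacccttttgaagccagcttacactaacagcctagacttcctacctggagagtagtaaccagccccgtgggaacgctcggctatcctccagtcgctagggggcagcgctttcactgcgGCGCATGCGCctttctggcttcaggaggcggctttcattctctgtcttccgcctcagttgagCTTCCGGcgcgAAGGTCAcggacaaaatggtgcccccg
Uqcrh, the hinge protein of complex III, lies on the minus strand at chr4:116075021-116075320:
Uqcrh: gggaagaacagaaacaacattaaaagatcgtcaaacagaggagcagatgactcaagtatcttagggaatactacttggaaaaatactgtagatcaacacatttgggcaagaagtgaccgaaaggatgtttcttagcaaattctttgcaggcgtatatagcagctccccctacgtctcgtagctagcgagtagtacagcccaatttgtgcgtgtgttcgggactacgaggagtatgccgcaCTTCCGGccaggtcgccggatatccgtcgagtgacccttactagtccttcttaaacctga
Ndufs4, an accessory subunit of the peripheral arm of complex I, lies on the minus strand at chr13:114388045-114388344:
Ndufs4: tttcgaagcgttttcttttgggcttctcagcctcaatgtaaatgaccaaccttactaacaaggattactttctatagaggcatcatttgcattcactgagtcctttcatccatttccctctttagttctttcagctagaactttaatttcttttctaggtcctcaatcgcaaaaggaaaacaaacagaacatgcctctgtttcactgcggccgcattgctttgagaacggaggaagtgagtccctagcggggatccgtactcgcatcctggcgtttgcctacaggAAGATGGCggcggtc
Atp5b, the catalytic beta subunit of the ATP synthase, lies on the plus strand at chr10:128083057-128083356:
Atp5b: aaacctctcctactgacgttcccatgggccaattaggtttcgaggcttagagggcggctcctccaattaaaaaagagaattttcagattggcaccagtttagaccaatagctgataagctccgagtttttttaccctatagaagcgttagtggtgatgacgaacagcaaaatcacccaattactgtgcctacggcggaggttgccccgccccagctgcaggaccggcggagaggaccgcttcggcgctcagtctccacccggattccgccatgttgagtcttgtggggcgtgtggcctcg
Cox7a1, the heart and skeletal muscle form of subunit 7a of complex IV, lies on the plus strand at chr7:30183921-30184220:
Cox7a1: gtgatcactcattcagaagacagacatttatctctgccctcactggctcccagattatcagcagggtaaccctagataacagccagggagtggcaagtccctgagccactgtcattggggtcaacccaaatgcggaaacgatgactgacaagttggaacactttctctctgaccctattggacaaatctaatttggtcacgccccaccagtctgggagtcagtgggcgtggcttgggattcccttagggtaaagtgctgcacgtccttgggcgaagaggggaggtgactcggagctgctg

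The Atp5k window held the NRF1, ETS and ERR letters, that of Uqcrh the ETS letters and that of Ndufs4 the YY1 letters just inside the transcript. Those of Atp5b and Cox7a1 held none of the 4. The 69 matched members had 74 windows, and a gene was counted if any of its windows held a motif. Of the 69, 17 (24.6%) held the NRF1 motif, against 5.19% of all 27025 genes with a window. The ETS motif stood in 17 (24.6%, against 9.93%), the YY1 motif in 10 (14.5%, against 3.19%) and the ERR motif in 8 (11.6%, against 5.38%). At least 1 motif stood in 39 of the 69 (56.5%, against 21.1% of all genes). These matches are a description of letters in a window. The 39 members with a motif had a median change of -0.67 from day 7 to day 89 in controls on the log2(FPKM + 1) scale, with a range of -1.76 to 0.71. The 29 tested members without one had a median of -0.61 and a range of -1.55 to 1.01.

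Recovered reads per library ran from 15256018 to 18505144, and the members took 0.901 to 1.30% of them. Mitochondrial transcripts took 9.96 and 12.2% of reads in controls 10 and 53, 14.2% in DSS 75 and 0.479 to 4.04% in the other 11 libraries, so results at day 7 are also given without those 3. The extract protocol speaks of retinas where the tissue label says ovary. Of 16 retina markers the highest was Rom1 at 7.22 FPKM, followed by Gnat2 at 1.13, and 12 were at 0 in at least 1 library, while the luteal gene Hsd3b1 reached 3681 FPKM and the oocyte coat gene Zp3 reached 114 FPKM. FPKM (fragments per kilobase of gene, scaled to a total for each library) was tested as log2(FPKM + 1) with limma over all 18006 genes that reached 0.5 FPKM in at least 3 libraries. That scaling total was not the read total. It ran from 0.852 times the recovered reads in DSS 75 to 1.07 times in DSS 81, and was 0.935 and 0.913 times in controls 10 and 53. A smaller total gives a larger FPKM for the same reads. A change is called where the adjusted p, over all genes tested, is under 0.05.

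Of the 86 rows, 82 passed the filter. The others were Cox8c and Cox7b2 (testis forms of complex IV subunits, at most 0.581 and 0.117 FPKM), Ndufb11b (a second copy of Ndufb11, at most 0.516 FPKM) and the second Atp5o row, listed at 0 in all 14 libraries. A gene can pass the filter through 1 group alone. Over the 82, mean FPKM across libraries had a median of 56.5 and ran from 0.341 for Cox8b, a muscle form of subunit 8, to 501 for Cox6a1, the widely expressed form of subunit 6a. In complex I the mean FPKM ran from 2.40 for Ndufb2, a membrane-arm accessory subunit, to 229 for Ndufa2, an accessory subunit of the peripheral arm. Complex II lay within 54.5 (Sdhc, a membrane anchor) to 80.2 FPKM (Sdhd, the other anchor). Complex III ran from 44.2 (Uqcrc1, a core protein) to 152 FPKM (Uqcrh). In complex V the range was 13.2 for Atp5l (subunit g) to 238 FPKM for Atp5a1 (the alpha subunit). FPKM divides by the deposited gene length, which for the members ran from 360 to 8086 bases and may cover more than the main transcript. Levels of different genes are therefore comparable only as far as those lengths hold. Symbols with near-identical copies (Atp5g1 to Atp5g3, Cox5b with Cox5b-ps, Ndufb11 with Ndufb11b) are uncertain in how reads were shared, since no source used here gives the handling of multiply mapped reads.

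**Figure D1:**
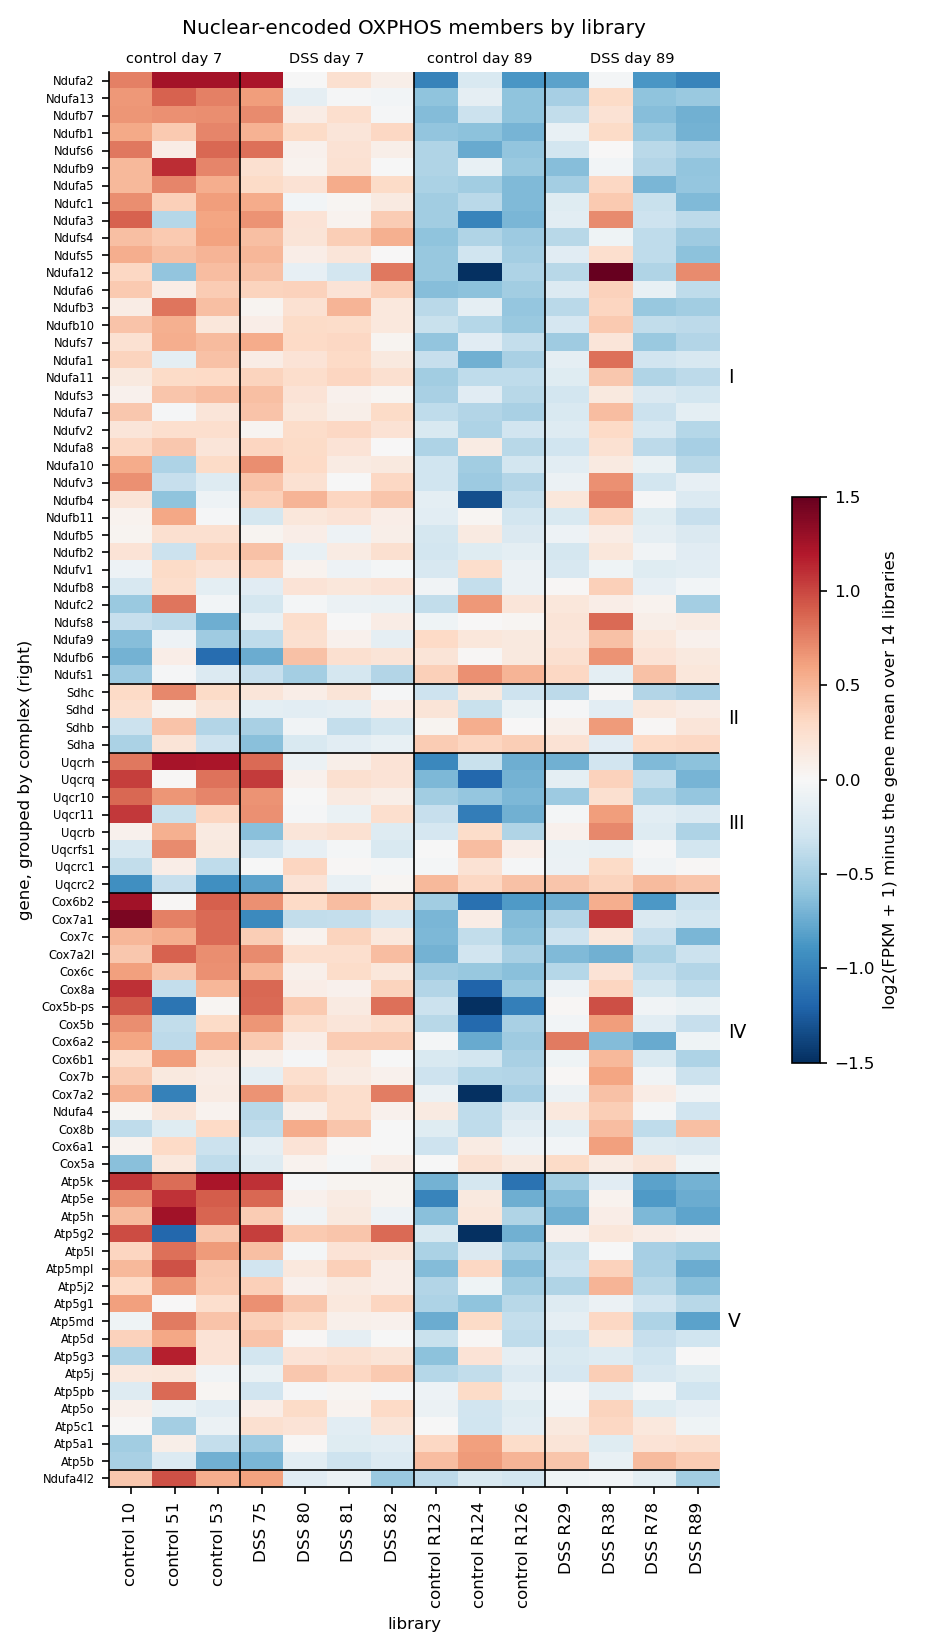
Heat map of 81 of the 82 tested members (rows, grouped by complex and ordered within it by the change from day 7 to day 89 in controls) in 14 libraries (columns), coloured by log2(FPKM + 1) minus the gene's mean over the libraries, with colours saturating at 1.5 in either direction. Most rows are red at day 7 and blue at day 89, a few rows at the foot of complexes I, II, III and V run the other way, and DSS R38 differs from the other DSS libraries at day 89.

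Between day 7 and day 89 in control ovaries, most of the members that passed the threshold were lower at day 89, and the few that were higher include the catalytic subunits Atp5b and Sdha. In controls 43 of 82 tested members fell and 6 rose (52.4 and 7.32%), while of all genes tested 15.7% were lower and 16.1% higher (31.8% in either direction). The median member changed by -0.67 on the log2 scale and 69 of 82 lay below 0, against a median of 0 over all genes. Control groups at the 2 days did not overlap in 46 members on the low side and 7 on the high side, where 22.2 and 22.8% of all genes did so. Summed over the members, FPKM was 7808, 8296 and 7697 in controls at day 7 and 5011, 5635 and 5021 at day 89. All 3 day 89 sums lay below all 3 day 7 sums on this scale. Total FPKM over all genes was itself higher at day 7, at 338346 to 449284 in controls against 274631 to 279162 at day 89. Taken over those totals, the member sums of the 2 control groups overlapped. As a share of recovered reads the members stayed apart, at 1.06 to 1.30% at day 7 and 0.901 to 1.00% at day 89.

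These counts moved with the scaling. With each library rescaled to the same FPKM total (TPM), 15 members were called lower and 11 higher, and all genes split into 1082 lower and 5710 higher, where the deposited scale gave 2832 and 2900. On that scale the median of all genes moved to 0.46 and that of the members to -0.14, which left them 0.60 apart, against 0.67 on the deposited scale. By complex the medians on the TPM scale were -0.14 in I, -0.18 in III, -0.40 in IV and -0.13 in V. With each library's trend along gene length removed, 27 members were called lower and 8 higher (13.5 and 13.4% of all genes), with a median of -0.44.

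In complex I, 20 of 36 tested members fell in controls and 2 rose, with a median of -0.67. Ndufa2 showed the largest fall of all 82: its FPKM was 329.5, 463 and 462 in controls at day 7 and 96.3, 166 and 105 at day 89. The groups did not overlap, and the change was -1.79 on the log2 scale (SE 0.34, limma adjusted p = 0.00194). Of the other accessory subunits, Ndufa13 (also known as GRIM-19, at the joint of the arms) changed by -1.21, Ndufb7 by -1.21, Ndufb1 by -1.20 and Ndufs6, a zinc-binding subunit of the peripheral arm, by -1.19, and all 4 were called. Ndufs4, whose loss in mice gives a Leigh-like disease, was at 44.9, 43.3 and 50.02 FPKM at day 7 and 21.2, 23.7 and 22.05 at day 89. Its replicates lay close together in both groups and the fall of 1.01 (SE 0.14) had an adjusted p of 0.000502 in limma.

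In the electron-carrying core of complex I members were called in both directions. Ndufs1, the large iron-sulfur subunit next to the NADH site, rose from 6.10, 9.25 and 7.94 FPKM to 12.3, 15.6 and 13.8, a change of 0.77 (limma adjusted p = 0.00531). All 3 day 89 controls lay above all 3 day 7 controls. Ndufs7, which carries the last iron-sulfur cluster before ubiquinone, fell by 0.79 (limma adjusted p = 0.011), from 77.8, 97.2 and 92.7 to 43.5, 58.6 and 51.5 FPKM. Ndufv1, which binds NADH and FMN, was not called, at -0.16. The other riser was Ndufa9, an accessory subunit that binds NADPH, at 0.62 (limma adjusted p = 0.0207). By position in the enzyme, 9 of 16 members of the peripheral arm fell and 2 rose (median -0.65), and 11 of 20 of the membrane arm fell, the others not being called (median -0.70).

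Complex II, the only one made wholly from nuclear genes, had 1 riser and 1 faller among 4. Sdha, the flavoprotein that oxidises succinate, was at 53.7, 85.6 and 60.1 FPKM in day 7 controls and 97.4, 93.8 and 96.7 at day 89, a rise of 0.55 (limma adjusted p = 0.0452). The groups were apart, with control 51 nearest to the day 89 values. Sdhc fell by 0.59 (adjusted p = 0.0246 in limma), from 65.5, 88.2 and 64.7 to 42.6, 58.98 and 42.7 FPKM. Sdhb, the iron-sulfur subunit, and Sdhd were at 0.31 and -0.24, neither called.

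In complex III 4 of 8 members fell and 1 rose (median -0.72). Uqcrh was at 231, 315 and 314 FPKM in controls at day 7 and 67.8, 106 and 79.99 at day 89, a fall of 1.76 (SE 0.24, limma adjusted p = 0.000483). Its lowest day 7 control was more than any day 89 control. Uqcrc2, a core protein of the matrix side, went the other way, from 23.8, 36.1 and 23.8 to 65.01, 57.5 and 62.7 FPKM, a rise of 1.14 (SE 0.23, limma adjusted p = 0.00255). It was the largest rise among the 82. The small subunits Uqcrq (-1.48) and Uqcr10 (-1.34) fell, as did Uqcr11 (-1.05), while Uqcrb, another small subunit, was not called, at -0.38. Uqcrc1, the partner of Uqcrc2, was at 0.28 and Uqcrfs1, the Rieske iron-sulfur protein, at -0.02, and neither was called.

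In complex IV 9 of 16 tested members fell and the others were not called (median -0.79). That median was -0.38 without controls 10 and 53 and DSS 75, and -0.40 on the TPM scale. Cox7a2l, a supercomplex factor counted here with complex IV, was at 225, 315 and 275 FPKM at day 7 and 104, 139 and 121 at day 89, a fall of 1.16 (SE 0.19, limma adjusted p = 0.00103). The groups were far apart relative to their spread. Cox6b2, a form of subunit 6b best known from testis, fell by 1.55, Cox7a1 by 1.41 and Cox6c, a small membrane subunit, by 1.15. Cox6a1, the most abundant member, was at 510.1, 605 and 395 FPKM and then 396, 537 and 469, and Cox5a, a subunit of the matrix side, was at 0.41. Neither passed the threshold.

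In complex V, 8 of 17 members fell and 2 rose (median -0.65). Of the 5 F1 members 2 rose and 2 fell. Atp5b was at 129.6, 158 and 110 FPKM in day 7 controls and 251.2, 284 and 259 at day 89, a rise of 1.01 (SE 0.20, limma adjusted p = 0.00279), and Atp5a1 rose by 0.67 (adjusted p = 0.0259 in limma). For Atp5b all 3 day 89 controls lay above all 3 day 7 controls. The small epsilon subunit Atp5e fell by 1.42 and the delta subunit Atp5d by 0.61, while Atp5c1, the gamma shaft, was at 0.04. Among 12 members of the membrane part and stalks 6 fell and the others were not called (median -0.79). Atp5k led them, at 76.4, 64.6 and 84.8 FPKM and then 21.6, 29.6 and 16.1, a fall of 1.74 (SE 0.29, limma adjusted p = 0.0011). Day 7 and day 89 controls did not overlap for it.

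Without the 3 libraries rich in mitochondrial transcripts, 27 members were called lower and 2 higher in controls at a median of -0.61, with 25 of the 43 fallers among them, while 1607 of all genes were lower and 1589 higher. That comparison has 1 control at day 7 and takes its spread from the other groups. Leaving out single libraries gave 30 to 45 members lower and 3 to 8 higher, and the count of risers fell to 3 without control 10. Over the same fits 3713 to 6430 of all genes were called in either direction.

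**Figure D2:**
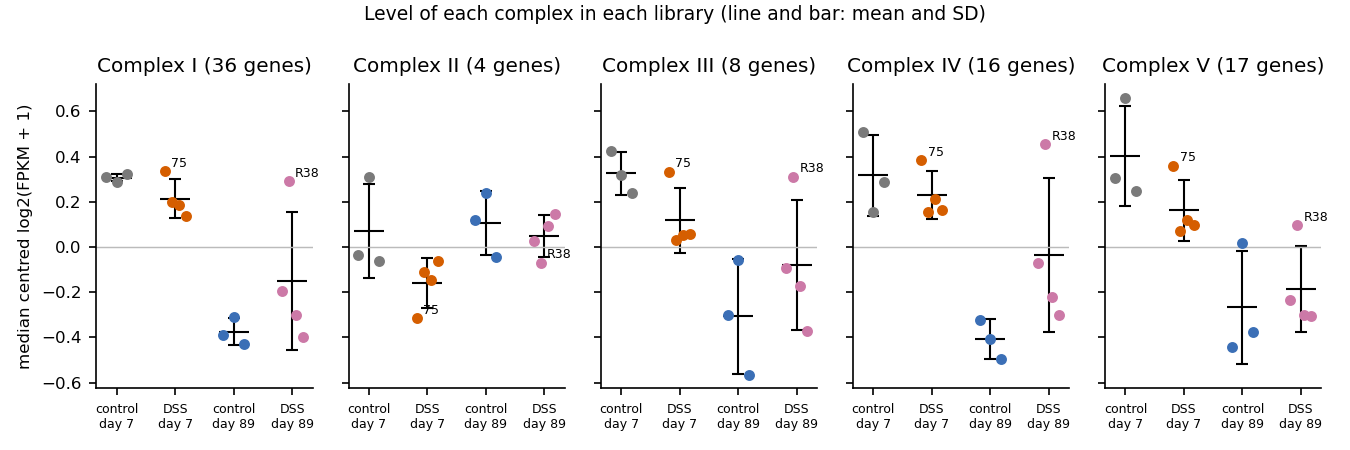
Level of each complex in each library: the median over its tested members of log2(FPKM + 1), each member centred on its mean over 14 libraries, with the group mean and SD. Complexes I, III, IV and V lie higher at day 7 than in day 89 controls, complex II does not, and DSS 75 and R38 are the highest of their groups in complexes I, III, IV and V.

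In DSS ovaries, too, more members were called lower than higher at day 89. Of 82 members 15 fell and 3 rose (18.3 and 3.66%), against 10.7% of all genes in each direction (21.4% together). The median was -0.34, and 62 of 82 lay below 0. All 18 were also called in controls, where they made up 36.7% of the 49 called there, and the number called in DSS alone was 0. Medians by complex were -0.36 in complex I, 0.28 in II, -0.09 in III, -0.33 in IV and -0.38 in V. That of complex III turned to 0.10 after quantile normalization and to 0.23 on the TPM scale. On that last scale all genes had a median of 0.29 and the members of -0.02, and 2 members were called lower and 5 higher, among 814 genes lower and 3037 higher. The difference between the day effects in DSS and in controls is the interaction given further down.

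Among the fallers Ndufs4 was at 44.9, 37.4, 42.5 and 47.7 FPKM in DSS libraries at day 7 and 24.3, 31.3, 24.8 and 22.3 at day 89, a fall of 0.73 (SE 0.12, limma adjusted p = 0.00259). The groups did not overlap. Cox7a2l was at 277, 202, 202 and 233 and then 107, 103, 122 and 136 FPKM, a fall of 0.96 (adjusted p = 0.00274 in limma), again without overlap. In controls they fell by 1.01 and 1.16. Ndufa2 fell by 1.06, Atp5k by 0.84, Uqcrh by 0.84 and Atp5e by 0.82. Ndufa5, an accessory subunit of the peripheral arm, fell by 0.70, and Atp5g1, 1 of 3 genes for the c ring, by 0.64. The complex I subunits Ndufs7, Ndufb7, Ndufb1 and Ndufb9 fell by 0.64, 0.64, 0.60 and 0.56.

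The 3 risers in DSS were Atp5b, Ndufs1 and Uqcrc2. Atp5b was at 113, 164, 147 and 158 FPKM at day 7 and 244, 168, 253 and 238 at day 89, a rise of 0.63 (limma adjusted p = 0.0233). The groups came close but did not overlap, with R38 just above the highest day 7 library. Ndufs1 rose by 0.58 (adjusted p = 0.0172 in limma) and Uqcrc2 by 0.58 (adjusted p = 0.048 in limma), the latter from 25.9, 53.4, 42.5 and 47.1 to 61.6, 58.4, 64.6 and 61.95 FPKM. Sdha and Sdhb were at 0.45 and 0.52 with adjusted p of 0.0739 and 0.0854 in limma, short of the threshold.

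This comparison leaned on single libraries. DSS R38 was at 7360 summed FPKM, where R29, R78 and R89 were at 5526, 5338 and 5070. Without it 33 members were called lower and 3 higher (13.3 and 14.4% of all genes), and the median was -0.48. Without R29, R78 or R89, 4 members were called lower, and without R29 0 were called higher. Calls over all genes dropped as well: without R29 2043 genes were called in either direction, where 3860 were called with all libraries. Without DSS 75, the library with the largest mitochondrial share, 6 of the 15 fallers were still called, and without DSS 81 also 6. Over all fits that left out a single library, 2043 to 4941 of all genes were called in either direction. Whether the members lost more calls than all genes did was not tested. Without control 51, 5 members were called higher, among 4304 genes called in either direction. With sample weights 41 were called lower and 6 higher, among 3981 genes lower and 3975 higher.

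**Figure D3:**
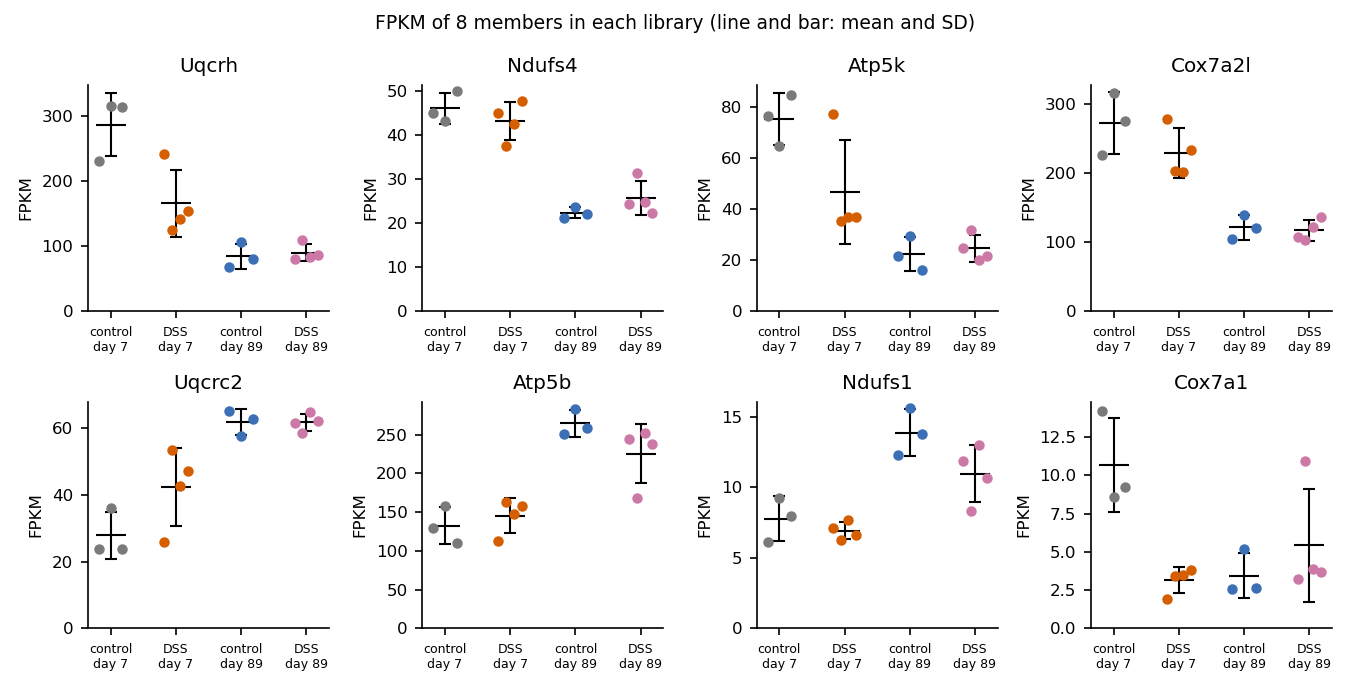
FPKM of 8 members in each of 14 libraries, by group, with the group mean and SD (points are libraries, the axis starts at 0). Uqcrh, Ndufs4, Atp5k and Cox7a2l are lower at day 89, Uqcrc2, Atp5b and Ndufs1 are higher, and Cox7a1 is low in all 4 DSS libraries at day 7.

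At the end of the DSS model no member differed between DSS and control ovaries beyond the threshold. The limma test called 0 of 82 members at day 7, where 0.0333% of all genes were called (6 of 18006; 0.0278% lower and 0.00555% higher), and voom on recovered reads called 0 genes. At an unadjusted p under 0.05 there were 14 members (17.1%), against 16% of all genes. The median member was at -0.14 with 54 of 82 below 0, but after rescaling to TPM the median was 0 where that of all genes was 0.13. Groups did not overlap in 9 members on the low side and 2 on the high side (5.87 and 6.24% of all genes). Summed FPKM of the members was 7593, 6634, 6590 and 6671 in DSS libraries, and on that scale only DSS 75 came near the controls. As a share of recovered reads the order was different. The members took 0.965, 1.12, 1.12 and 1.12% in the DSS libraries and 1.07, 1.30 and 1.06% in controls 10, 51 and 53. By that share DSS 75 lay below every control and the other DSS libraries lay within the control range. Mitochondrial transcripts are part of that read total. Of the reads outside them, the members took 1.12, 1.16, 1.16 and 1.17% in DSS 75, 80, 81 and 82. In controls 10, 51 and 53 they took 1.19, 1.33 and 1.20%, so that every DSS library lay below every control.

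Cox7a1 came closest to the threshold. In controls at day 7 it was at 14.2, 8.59 and 9.25 FPKM and in DSS libraries at 1.94, 3.40, 3.46 and 3.83. All 4 DSS libraries lay below all 3 controls, and the difference was -1.48 on the log2 scale (SE 0.34, limma adjusted p = 0.0885). This form prevails in muscle and brown fat. Striated muscle markers summed to 114 to 134 FPKM in day 7 controls and 68.7 to 137.5 FPKM in day 7 DSS libraries, with 7 of 13 (Acta1, Actc1, Ckm, Mb, Myh1, Myh4 and Myl2) at 0 in at least 1 library. After Tnni3 the highest in any library were Tnnt3 at 3.71 and Mylpf at 3.43 FPKM. The brown fat gene Ucp1 was at 0, 0.198 and 0.0880 FPKM in day 7 controls. Tnni3, the gene of cardiac troponin I, was at 128, 111 and 116 FPKM in those controls and 129, 71.8, 64.1 and 75.7 in DSS libraries, and the part of muscle cells in the Cox7a1 difference was not tested. Uqcrh was at 231, 315 and 314 FPKM in controls and 241, 125, 142 and 154 in DSS libraries at day 7, a difference of -0.82 (limma adjusted p = 0.136). The DSS libraries overlapped the controls through DSS 75 alone. Ndufb9 (a membrane-arm subunit) and Ndufa4l2 were also among the members with the smallest p on the low side, at -0.65 and -0.69.

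On the high side at day 7 the smallest p belonged to Ndufs8, an iron-sulfur subunit of complex I, at 44.4, 42.8 and 33.7 FPKM in controls and 52.4, 68.2, 56.3 and 61.2 in DSS libraries. The groups did not overlap, but the difference of 0.55 had an adjusted p of 0.176 in limma. Uqcrc2 was at 0.56, Ndufa9 at 0.36 and the membrane-arm subunits Ndufb6 and Ndufb4 at 0.62 and 0.57, with adjusted p from 0.227 to 0.337 in limma.

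The count at day 7 changed with 1 DSS library. Without DSS 75, limma called 1220 genes where it called 6 with it, and 8 of the members were called: 7 lower and 1 higher, against 3.35 and 3.52% of all genes. Those lower included Cox7a1 (-1.33), Uqcrh (-1.02), Atp5k (-1.02), Ndufa2 (-0.98), Ndufa4l2 (-0.91) and Ndufa13 (-0.83), with adjusted p from 0.013 to 0.0457. Uqcrc2 was higher by 0.77 (adjusted p = 0.0172 in limma). Within the libraries with a large mitochondrial share (DSS 75 against controls 10 and 53) the median member differed by -0.03, with 45 of 82 below 0. Within the others it differed by -0.21, with 52 of 82 below 0. Both comparisons have a single library in a group and no test. Without controls 10 and 53 and DSS 75, a fit that takes its spread from all groups called 865 genes, among them 6 members lower. With sample weights, which give libraries that stand apart less say, 7133 genes were called, with 24 members lower and 11 higher.

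At day 89 limma called 0 of 82 members between DSS and control ovaries, where it called 0.00555% of all genes (1 of 18006) and voom called 0. An unadjusted p under 0.05 was reached by 11 members (13.4%), against 4.58% of all genes. The median was 0.18 and 65 of 82 lay above 0, and 14 members on the high side and 3 on the low side did not overlap (4.04 and 4.25% of all genes). Complex IV had the highest median, at 0.33. Without DSS R38 the median of the members was 0.06 and 50 of 82 lay above 0. Complex IV was then at 0.18, with 15 of 16 above 0, and complexes I, II, III and V were at 0.07, -0.09, 0.02 and -0.08.

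The smallest p at day 89 was that of Ndufa6, an accessory subunit of complex I, at 43.9, 44.7 and 47.7 FPKM in controls and 59.6, 87.5, 63.7 and 52.5 in DSS libraries (difference 0.50, limma adjusted p = 0.924). All 4 DSS libraries lay above the 3 controls. Cox5b, a zinc-binding subunit of complex IV, was at 52.1, 30.6 and 49.7 and 68.3, 109, 62.8 and 55.1 FPKM, with R38 above the others. Its copy Cox5b-ps, Ndufa12 and Ndufb4 were at 1.18, 1.25 and 0.78. Ndufa12, which caps the peripheral arm, was at 9.75, 4.49 and 10.6 FPKM in controls and 10.99, 50.8, 10.7 and 25.1 in DSS libraries, so that R38 and R89 stood apart from R29 and R78. On the low side Ndufs1, Uqcrfs1, Atp5a1, Atp5b and Sdha were at -0.32, -0.31, -0.29, -0.24 and -0.19, with adjusted p of 0.924 or more in limma.

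The test of whether the DSS difference changed between the days, which is also the test of whether the day effect differed between DSS and control, called 0 of 82 members and 0% of all genes, both with limma and, for the members, with voom. At an unadjusted p under 0.05 there were 12 members (14.6%), against 8.45% of all genes. The median member was at 0.31 with 68 of 82 above 0, and complexes I, III, IV and V were at 0.29, 0.65, 0.57 and 0.21. Without controls 10 and 53 and DSS 75 those medians were 0.29, 0.50, 0.21 and 0.66. Cox7a1 was at 1.92 (SE 0.47, limma adjusted p = 0.419), followed by Uqcrh at 0.93, Cox6c at 0.64, Uqcr10 at 0.78 and Cox7c, a small subunit of complex IV, at 0.66. With sample weights 29 members were called higher and 6 lower for this difference, among 4226 genes. At day 89 Cox7a1 was at 2.55, 5.17 and 2.62 FPKM in controls and 3.20, 10.96, 3.89 and 3.70 in DSS libraries, so that only R38 came near the day 7 controls. On the negative side Uqcrc2, Ndufa9, Atp5b, Uqcrc1 and Atp5a1 were at -0.56, -0.35, -0.38, -0.31 and -0.34.

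The direction of the day effect went with the size of the encoded protein. Coding length (the longest coding sequence of the gene in GENCODE M21) was found for 81 of the 82. In control ovaries 28 of 41 members under 400 bases fell and the others were not called, with a median of -0.92, while of all genes that short 42.5% were lower and 2.38% higher, with a median of -0.57. Of 29 members between 400 and 1000 bases 14 fell (median -0.59), against 24% of all such genes lower and 7.4% higher (median -0.21). Of 11 members over 1000 bases 6 rose (median 0.55), against 23.9% of all such genes higher and 7.52% lower (median 0.19). Every one of the 6 risers in controls is thus in the longest class, and so are the core proteins Ndufv1 and Uqcrc1, which were not called.

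Across the 81 members Spearman's rho of the change with coding length was 0.6 in controls, and 0.45 across 13812 genes, as a description over genes that share the same libraries. In DSS ovaries rho was 0.4 for the members and 0.41 for all genes. For DSS against control it was 0.34 at day 7 and -0.44 at day 89 for the members, and 0.13 and -0.2 for all genes. Genes with short coding sequences were lower at day 89 outside the members as well, and the part of transcript length in their change was not tested beyond the removal of the length trend given above.

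**Figure D4:**
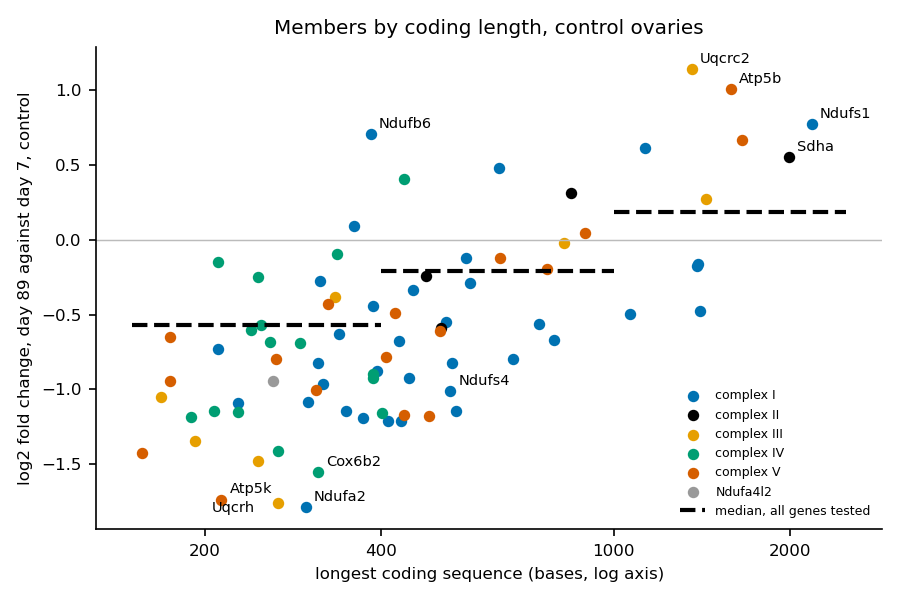
Change from day 7 to day 89 in control ovaries (log2 scale) of 81 members against the length of the longest coding sequence (log axis), coloured by complex, with dashed lines at the median of all genes in 3 length classes (-0.57, -0.21 and 0.19). Members under 400 bases lie mostly below 0 and below the line, and the 6 risers lie at the right.

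Other genes of the same pathways were set beside the members, from lists chosen with results of these data known. Of the 7 listed chain genes outside the rule, 4 fell from day 7 to day 89 in controls and the others were not called. They include Cox4i1, the main form of subunit 4 of complex IV (-0.74), its hypoxia-linked form Cox4i2 (-1.09), and Ndufab1, the acyl carrier protein bound to complex I (-0.71). Cyc1, cytochrome c1 of complex III, was at 0.32 and cytochrome c itself, Cycs, at -0.42, neither called. Of 45 tested assembly factors 16 fell and 4 rose (median -0.39), among them Ndufaf2, a complex I factor (-0.89), and Atpaf1, which assembles the F1 head (1.15). Genes of the citric acid cycle and pyruvate dehydrogenase, which feed the chain, had 5 of 17 called higher (29.4%) and the others not called (median 0.21), against 16.1% of all genes and 23.9% of all genes with over 1000 coding bases called higher. Fh1, the fumarase, rose by 0.85. Of 18 tested regulators 3 rose and 1 fell (16.7 and 5.56%), a share of risers close to the 16.1% of all genes. Gabpa, the DNA-binding part of GABP, rose by 0.92 (limma adjusted p = 0.0229) and Yy1 by 0.48 (adjusted p = 0.0184 in limma), while Nrf1 was at -0.25, Esrra, which encodes an oestrogen-related receptor, at -0.21 and Tfam, which packages mitochondrial DNA, at -0.35, none of them called.

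The 82 tested cytosolic ribosomal protein genes, which share with most members a short coding sequence and a high level, had a median change of -1.31 in controls, with 74 lower. In DSS ovaries the median was -0.94 with 64 lower. The 13 subunits encoded in mitochondrial DNA had a median of -2.39 in controls with 8 lower, and of -1.07 in DSS ovaries with 1 lower. By summed FPKM, the library lowest in the mitochondrial set was the highest in the nuclear one in the controls of each day. In the DSS groups the library highest in one sum was the highest in the other. Control 51 had the lowest mitochondrial sum of the day 7 controls, at 12381 FPKM, and the highest nuclear sum, at 8296 FPKM. R124 was the lowest for the mitochondrial set, at 3601 FPKM, and the highest of the day 89 controls for the nuclear one, at 5635. DSS 75 led its group in both sums, at 130236 and 7593 FPKM, and so did R38, at 27729 and 7360 FPKM. As a share of recovered reads the members were lowest in DSS 75, at 0.965%, against 1.12% in each of DSS 80, 81 and 82. The lead of DSS 75 in the nuclear sum thus depends on the deposited scaling. R38 was the highest of its group by share of reads as well, at 1.18%. Without controls 10 and 53 the mitochondrial subunits were at -0.37 from day 7 to day 89 in controls and the members at -0.61.

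Some lists of ovarian cell type markers moved with day as well, and others had few calls or none. Luteal markers summed to 2972 to 4062 FPKM in controls at day 7, 4760 to 6080 in controls at day 89, 2281 to 3432 in DSS libraries at day 7 and 3758 to 6284 in DSS libraries at day 89, and 0 of 10 were called in controls from day 7 to day 89 (2 at an unadjusted limma p under 0.05) and 6 higher in DSS. Oocyte markers summed to 168 to 288, 41.9 to 172, 343 to 553 and 68.8 to 215 FPKM in the same order, with 5 of 12 lower in controls and 11 of 12 lower in DSS. Macrophage markers summed to 111 to 161, 131 to 235, 235 to 321 and 214 to 475 FPKM. Erythrocyte markers summed to 49.9 to 310, 42.8 to 45.6, 410 to 726 and 44.4 to 656 FPKM. None of the luteal, granulosa, theca or macrophage markers was at 0 in any library, and Figla was the only oocyte marker that was. The part of cell makeup in the members' changes was not tested.

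Several subunits of complex IV and the c ring of complex V come in forms from different genes, and the ratio of 2 forms was taken within each library as log2 of FPKM + 0.1. For low forms that added constant sets the ratio: Cox8b, at 0 FPKM in 4 libraries, has no ratio of its own there. An exact two-sided permutation test within day or within treatment was run on 7 ratios in 2 comparisons, and none of the 14 had an adjusted p under 0.05. Cox7a1 over Cox7a2, the widely expressed form, had a geometric mean ratio of 0.153 in day 7 controls and 0.0295 in day 7 DSS libraries, and 0.0731 and 0.0601 at day 89. The difference between DSS and control was -2.38 on the log2 scale at day 7 and -0.28 at day 89, with a mean of -1.33 (exact permutation p = 0.0302, adjusted p = 0.141). For Cox6b2 over Cox6b1 the ratio was 0.0842 and 0.0837 in day 7 controls and DSS libraries and 0.0419 and 0.0506 at day 89, a mean change with day of -0.87 (exact permutation p = 0.0157, adjusted p = 0.141). Without control 51 that change was -1.12 with an adjusted p of 0.02 in the exact permutation test. Atp5g1 over Atp5g2 was lower in DSS than in control by a mean of 0.74 on the log2 scale (exact permutation p = 0.0204, adjusted p = 0.141). Since the 3 c ring genes have near-identical coding sequence and related copies, how reads were shared between them can bear on that ratio. The muscle forms Cox6a2 and Cox8b stood at ratios of 0.00276 or less to their widely expressed forms in every group, as geometric means, and Ndufa4l2 at 0.144 to 0.26 of Ndufa4, which is now counted as a subunit of complex IV.

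Among the controls, 1 library at each day departed from its group in the same members. These 2, control 51 and R124, have the lowest mitochondrial share at their day (1.66 and 0.479%) and were picked after their values were seen. Spearman's rho between their departures from the other controls of their day was 0.66 over the 82 members and 0.37 over all genes tested, as a description across genes. Both departures lay below -0.5 in 8 members (9.76%, against 3.9% of all genes) and above 0.5 in 6 (7.32%, against 2.73%). Atp5g2 stood furthest out, at 159, 34.97 and 106 FPKM in controls at day 7 and 68.6, 14.8 and 48.3 at day 89, with 51 and R124 second in each list. It was followed by Cox7a2, at 108, 36.6 and 81.9 and 70.5, 26.1 and 52.6 FPKM, while Cox8a, Cox5b, Cox5b-ps, Ndufa12, Ndufb4 and Uqcr11 also lay low in both. Atp5g3, another c ring gene, lay high in both, at 122, 379 and 195 and 110, 194 and 153 FPKM, with Ndufc2, Atp5h, Atp5md, Atp5mpl and Sdhb. The low set holds 3 genes that are denominators of the ratios above (Atp5g2, Cox7a2 and Cox8a), and without R124 the DSS difference of Atp5g1 over Atp5g2 was -0.44 and that of Cox7a1 over Cox7a2 was -0.96. The departures of DSS 75 and R38 from their own groups had a rho of 0.21 with each other over the members.

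**Figure D5:**
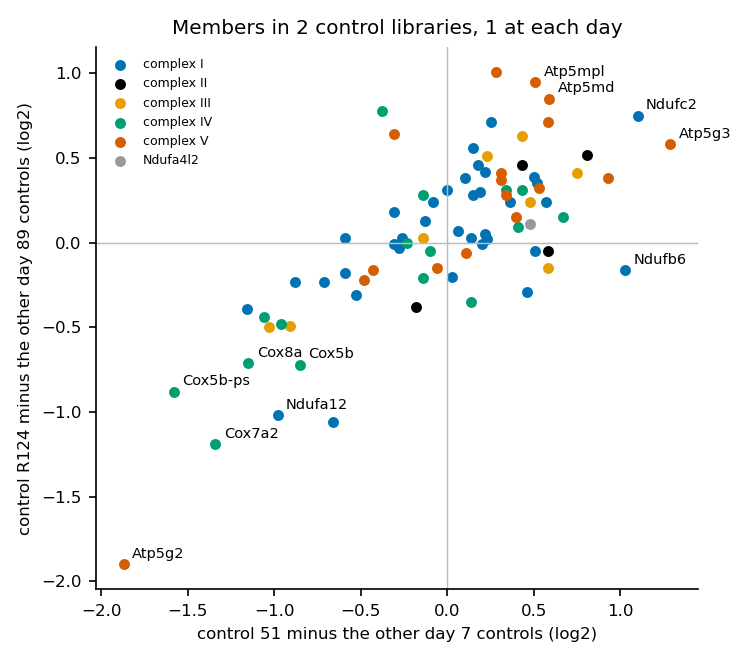
Each point is 1 of 82 members: the difference (log2) of control 51 from the other day 7 controls on the horizontal axis, and of control R124 from the other day 89 controls on the vertical axis, coloured by complex. Atp5g2, Cox7a2 and Cox5b-ps lie low in both libraries and Atp5g3 and Ndufc2 high in both.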

How the data were processed

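Bulk RNA-seq of 14 ovary libraries was analysed from 1 deposited table of FPKM per gene and library with a gene length column. Reads were aligned with HISAT2 2.0.5 to GRCm38, per the submitters' processing notes. No source used here gives the counting tool, annotation release or strand setting. The authors' FPKM values times the deposited gene length gave whole reads for 100% of values below 300 reads (within 0.01 of a whole number), which supplied depths and a voom alternative. Depth limits low members most, since 15256018 to 18505144 reads per library stand behind each value. Genes with at least 0.5 FPKM in at least 3 libraries were tested as log2(FPKM + 1) with limma 3.58.1 (R 4.3.3), with a mean-variance trend, 4 group means over all 14 libraries, 5 contrasts and Benjamini-Hochberg adjustment over 18006 genes at 0.05. The SE is limma's moderated one. Fits were tested on simulated data. Members and lists were chosen with earlier results of these data known. Members were named by largest called change, or by smallest p in each direction where none was called, besides core, isoform and extreme-level members. Promoter windows came from RefSeq on GRCm38.p6 and coding lengths from GENCODE M21. Alternatives changed the pseudocount, filter, scaling, weights, tool and libraries. Results of a few single genes are not reported here.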

Additional observations from a re-analysis of the deposited data

Results flagged for a closer look

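A sample was singled out where, in a DSS group of 4 libraries, the gap between the highest or lowest value and its nearest neighbour passed Dixon's 95% critical value as a share of the group's range. Of 110 groups so examined 26 met this, and the control groups of 3 were not examined. Chance gives about 1 in 20 for a single group, but that rate does not apply to the 26. The groups share the same DSS libraries, and many members among them were picked for a large change or a small p. The values lie almost wholly in DSS 75 (highest in 10, lowest in 1) and R38 (highest in 12, lowest in 1).

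At day 7 the median centred level of the members was 0.335 in DSS 75 and that of complex III 0.334, both the highest of the group. The same library was highest in FPKM for Ndufa2 (453), Uqcr10 (221), Atp5e (169.9), Uqcrq (140.4), Ndufa13 (122), Cox5b (112), Ndufs6 (91.6) and Atp5k (77.5), and lowest for Atp5g3 (139). DSS 80 was lowest for Cox6a2, the muscle form of subunit 6a, at 0.973 FPKM and highest for Uqcrc1 at 54.98 FPKM.

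At day 89 R38 was highest for Cox6a1 (758 FPKM), Ndufa2 (189.6), Uqcr10 (163), Ndufs8 (103), Atp5e (96.9), Ndufa13 (96.3), Ndufb6 (78.2), Ndufs7 (75.3), Cox6c (71.9), Ndufa5 (56.9), Cox5b-ps (47.7) and Cox7a1 (10.96), and lowest for Atp5a1 (204 FPKM). Mitochondrial transcripts took the largest share of reads in DSS 75. The part of that share in these values was not tested.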

How the results depend on the processing

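Of 1680 alternative results for named members 0 reversed, 1508 stayed on their side of the threshold, 135 lost a call and 37 gained one. Of the values that answer a comparison (counts, medians and ratios), 643 alternatives kept the direction and call or stayed near the value (counts within 1.5 times), 91 moved it, 1 brought a ratio past the threshold and 19 reversed a ratio, 15 of these by leaving out a single library. In the order DSS against control at day 7 and at day 89, day 89 against day 7 in controls and in DSS, and the interaction, these values moved. A pseudocount of 0.1 gave 2 and 0 genes called in the first 2 comparisons, a filter of 1 FPKM in 7 libraries 2 and 0, fits of only the groups compared 0 and 0, and voom 0 and 0. Without a filter 5 genes were called at day 89, 7 members fell in DSS (among 1408 genes lower) and 2 genes were called for the interaction. TPM scaling called 1 gene at day 7. With it 11 members were called higher and 15 lower in controls (median -0.14) and 5 and 2 in DSS (median -0.02), and the interaction median was 0.11. TMM called 3 genes at day 7. Quantile normalization called 10 members higher in controls (median -0.45), among 2926 genes higher and 2692 lower. In DSS it called 7 members higher, among 1950 genes higher and 1953 lower. Removing the length trend called 11 genes at day 7, 27 members lower in controls (median -0.44) and 8 in DSS (median -0.14). Of all genes, 2434 were then lower in controls and 1586 in DSS. Sample weights called 7133 genes at day 7 (11 members higher, 24 lower), 92 at day 89, 11786 in controls (11 members higher), 7956 in DSS (6 higher, 41 lower) and 4226 for the interaction (29 higher, 6 lower). A term for controls 10 and 53 and DSS 75 called 20 genes at day 7 and 3141 in controls (3 members higher). Without those 3 libraries 865 genes were called at day 7 (6 members lower), 0 at day 89, 3196 in controls (2 higher, 27 lower), and 5 members fell in DSS. The causes were not tested.

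Leaving out 1 library at a time gave 0 to 1220 genes at day 7 (0 to 1 members higher, 0 to 7 lower, median -0.19 to -0.10), 0 to 2 at day 89 (median 0.06 to 0.23), 3713 to 6430 in controls (3 to 8 higher, 30 to 45 lower, median -0.68 to -0.64), 2043 to 4941 in DSS (0 to 5 higher, 4 to 33 lower, median -0.48 to -0.25) and 0 to 41 for the interaction (median 0.21 to 0.37). Ratios ranged, for DSS and then day, from -0.96 to -0.44 and -0.16 to 0.38 (Atp5g1/Atp5g2), -1.45 to -0.50 and 0.08 to 1.04 (Atp5g3/Atp5g2), -0.09 to 0.65 and -1.79 to -1.08 (Cox6a2/Cox6a1), -0.12 to 0.30 and -1.12 to -0.70 (Cox6b2/Cox6b1), -1.57 to -0.96 and -0.38 to 0.22 (Cox7a1/Cox7a2), 0.07 to 1.02 and -0.02 to 0.83 (Cox8b/Cox8a), and -0.56 to -0.27 and -0.58 to -0.29 (Ndufa4l2/Ndufa4). With a pseudocount of 1 the day change of Cox7a1/Cox7a2 was 0.04. Without the same 3 libraries the day changes of Cox8b/Cox8a, Atp5g1/Atp5g2 and Atp5g3/Atp5g2 were -0.30, -0.35 and -0.68. No paired analysis was possible because no replicate number recurs between groups.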
